A study of Mus musculus with 6 samples.

Results

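Tetraspanins are small proteins that cross the membrane 4 times and gather integrins, other adhesion molecules, proteases and signalling enzymes into patches at the cell surface and on exosomes. This account covers 6 of their genes, Cd9, Cd37, Cd53, Cd81, Cd82 and Cd151, in CD4-CD8- (double-negative, DN) cells from C57BL/6 fetal mouse thymus lobes cultured with or without TCDD (2,3,7,8-tetrachlorodibenzo-p-dioxin), the classical ligand of the aryl hydrocarbon receptor (AHR). The genes were chosen by name, with the TCDD differences of these arrays already known, and each was read from the brightest, on average, of the probe sets that carry its symbol alone. All 6 had such a probe set (13 in all), among 12393 genes measured. Their levels and differences are therefore given as a description, with the error of the fit and no p-value, and calls are given as counts beside those over all genes.

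Lobes were taken at day 15 of gestation, cultured for 6 days with medium renewed every 2 days, and harvested at an age corresponding to day 21. Thymocytes were released from the lobes themselves, and emigrants were recovered from the fluid used to flush them. The groups were thymocytes with 10 nM TCDD (1 array), thymocytes with dioxane, the solvent, at 0.1% by volume (1 array), emigrants with 10 nM TCDD (2 arrays) and emigrants with dioxane (2 arrays; concentration not labelled). DN cells of every group were enriched with magnetic beads against CD4 and CD8 to more than 95%, and RNA of pooled cells was amplified before hybridisation. The emigrant TCDD arrays are labelled 1 and 2 and 1 emigrant dioxane array is labelled 2, while the other dioxane array has no number in its label and is called number 1 here. Same-numbered emigrant arrays and the thymocyte arrays were set side by side as 3 pairs, and no label says that the arrays of a pair share a culture. Separate cultures behind the arrays of a group are not stated, so errors measure the spread between these arrays, which may be technical, and the number of arrays limits the precision.

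Within the family, CD9 and CD81 are close relatives that bind immunoglobulin-type partners and integrins. CD37 and CD53 are largely restricted to leukocytes, where they regulate adhesion and receptor signalling. CD82 was first known as a suppressor of metastasis and can act as a costimulatory molecule on T cells, and CD151 holds laminin-binding integrins in place. CD9 is abundant on megakaryocytes, platelets and many myeloid cells, and antibodies to CD81 have been used to disturb T-cell maturation in fetal thymus culture.

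The arrays differed in more than their labels, as seen in lists of marker genes that were summed on the linear scale and are given here as log2 of the sum. The 14 measured DN T-lineage markers summed to 13.53 (dioxane) and 12.39 (TCDD) in thymocytes, 13.41 and 12.35 in emigrants numbered 2, but 10.27 and 10.02 in emigrants numbered 1. The 15 macrophage and dendritic markers read 9.55 and 10.59, 11.41 and 13.27, and 13.49 and 13.83 in the same order, and the 14 neutrophil and mast cell markers 9.54 and 9.81, 10.36 and 11.60, and 13.23 and 14.02. Beads against CD4 and CD8 would not remove myeloid or erythroid cells. The highest bacterial control of each array (4.32 to 4.92) serves as a guide to background. Cd8b1 lay under it on every array (3.53 to 4.36), Cd4 above it (4.93 to 5.19), and Cd8a above it on 4 arrays, with 5.50 on the dioxane emigrant array numbered 2 and 4.62 to 4.93 on the others. In bulk RNA of this kind, more cells of a type and more RNA per cell cannot be told apart. Of the AHR targets, Cyp1b1 read 6.73 with dioxane and 10.35 with TCDD in the thymocyte pair, 4.72 and 8.95 in the emigrant pair numbered 2, but 4.66 and 5.90 in the pair numbered 1. Summed levels of thymic epithelial genes lay between 7.48 and 8.52, and those of NK and innate lymphoid genes between 11.01 and 12.86.

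The promoters of 3 members are shown because their transcripts ran in different ways with TCDD, Cd9 being higher in every pair, Cd81 lower in every pair and Cd53 mixed. They come from RefSeq (GRCm38.p6), run 5′ to 3′ along the gene from 250 bases before to 50 bases after the annotated start, and carry in capitals each GCGTG, the core of the DNA element bound by AHR with its partner ARNT, or its reverse complement CACGC. They lie at chr6:125494711-125495010 (minus strand, Cd9), chr7:143052500-143052799 (plus strand, Cd81) and chr3:106790100-106790399 (minus strand, Cd53).
Cd9: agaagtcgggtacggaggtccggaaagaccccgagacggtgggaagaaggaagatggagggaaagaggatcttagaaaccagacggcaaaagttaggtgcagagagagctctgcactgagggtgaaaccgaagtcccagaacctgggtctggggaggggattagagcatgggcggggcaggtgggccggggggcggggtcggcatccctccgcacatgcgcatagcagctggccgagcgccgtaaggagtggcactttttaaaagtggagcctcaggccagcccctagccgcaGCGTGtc
Cd81: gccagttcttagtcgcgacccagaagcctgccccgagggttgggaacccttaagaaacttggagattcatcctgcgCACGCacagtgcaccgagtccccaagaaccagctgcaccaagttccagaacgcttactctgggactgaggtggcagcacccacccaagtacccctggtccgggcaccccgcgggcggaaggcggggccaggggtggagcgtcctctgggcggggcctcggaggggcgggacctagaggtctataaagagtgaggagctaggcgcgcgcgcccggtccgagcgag
Cd53: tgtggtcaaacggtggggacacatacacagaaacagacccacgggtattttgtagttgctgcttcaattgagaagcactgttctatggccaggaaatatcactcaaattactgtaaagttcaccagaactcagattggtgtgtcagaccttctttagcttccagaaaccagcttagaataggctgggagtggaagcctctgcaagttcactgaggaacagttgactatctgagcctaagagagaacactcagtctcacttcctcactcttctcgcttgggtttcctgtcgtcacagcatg
The Cd9 window held 1 GCGTG, whose first base was base 44 of the transcribed side, counting the annotated start as 1. The Cd81 window held 1 match on the opposite strand, at position -174 from the start, and the Cd53 window held none. All 6 members matched a RefSeq promoter, 10 windows in all because Cd82 had 4 annotated starts and Cd151 had 2. Of these 10 windows, 5 held GCGTG on either strand, in 4 of the 6 genes, and among all 32851 windows of 300 bases 32.4% did. The second Cd82 start had 4 matches, between positions -15 and 17, and Cd37 had none. The match is a description of letters and not of a bound site.

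Cd9 was the member with the highest TCDD differences. It measured 4.80 log2 units with dioxane and 6.15 with TCDD in thymocytes, 6.02 and 8.86 in the emigrant pair numbered 1, and 6.93 and 8.63 in that numbered 2. TCDD exceeded dioxane in each pair, and both emigrant TCDD arrays lay above both emigrant dioxane arrays however they are matched, but across sources the groups overlapped, since thymocytes with TCDD lay below emigrants numbered 2 with dioxane. The differences of 1.34, 2.84 and 1.69 correspond to 2.53-fold, 7.17-fold and 3.24-fold, with a mean of 1.96 ± 0.78 log2 units (SD, n = 3 pairs). The thymocyte dioxane value stood just above the highest bacterial control of its array (4.80 against 4.72), so that pair's difference is close to a lower bound. A difference of at least 1 log2 unit upwards in all 3 pairs was met by Cd9 alone among the 6 members and by 22 of 12393 genes (0.178%), a pattern known when the genes were chosen. By the smallest of its 3 differences Cd9 stood behind 4 genes, named after their values were seen: Cxcl2, a neutrophil chemokine (2.18), Scin, an actin-severing protein also on the list of AHR targets (1.85), Lgals3, a galactose-binding lectin (1.82), and Saa3, an acute-phase protein (1.52).

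**Figure D1:**
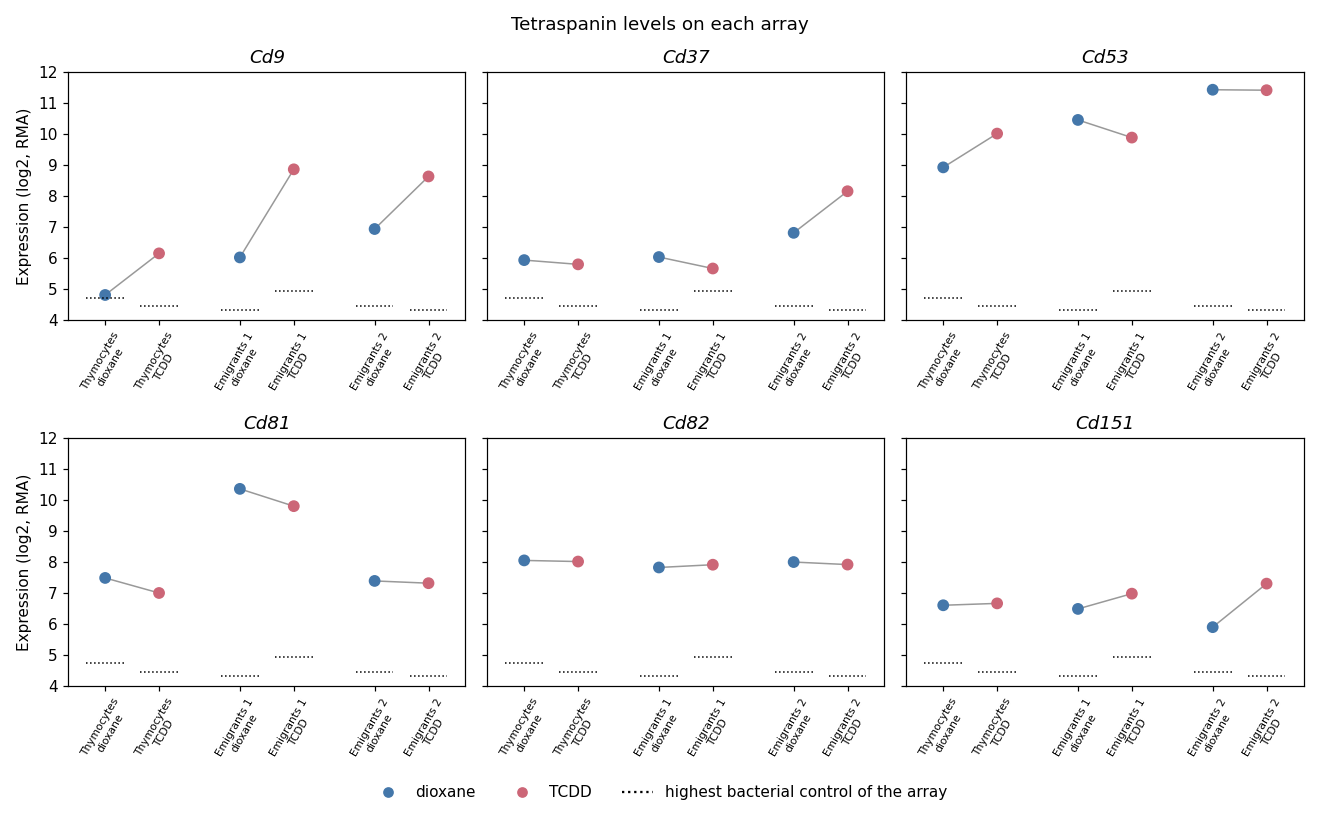
Expression of each member (log2 units, vertical axis) on the 6 arrays (horizontal axis), with dioxane in blue, TCDD in red, grey lines joining the arrays of a pair and dotted marks at the highest bacterial control of each array. Cd9 is higher with TCDD in every pair, Cd81 is high on both emigrant arrays numbered 1, and Cd82 stays between 7.82 and 8.05.

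Over both sources, with the source in the limma model, Cd9 differed by 1.96 ± 0.33 (log2, SE, n = 3 arrays per treatment), and in emigrants by 2.27 ± 0.38 (n = 2 per treatment). The difference of its TCDD effect between emigrants and thymocytes was 0.93 ± 0.66. At an adjusted p under 0.05, limma called 0 of the 6 members and 0 of 12393 genes (0%) over both sources, with 659 genes at an unadjusted p under 0.05. It also called 0 genes (0%) in emigrants and 0 (0%) for the difference between sources, with 255 and 97 genes at an unadjusted p under 0.05. Cd9 kept its sign whichever single array was left out, with a difference over both sources of at least 1.61 in those fits.

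Other measures were set beside the Cd9 differences, and none of the marker lists followed them in all pairs. Tiparp, an AHR target, differed by 3.06 log2 units in the thymocyte pair, -0.01 in the emigrant pair numbered 1 and 3.50 in that numbered 2. Cyp1a1, the classical inducible enzyme, differed by 3.89, 0.26 and 2.14, with the dioxane array of every pair (3.99, 3.96 and 3.84) and the TCDD array numbered 1 (4.22) under the highest bacterial control, so that 3.89 and 2.14 are lower bounds. Of 6 AHR targets, 6, 3 and 6 were higher with TCDD in the same order of pairs (medians 3.70, 0.12 and 2.82), and in the pair numbered 1 Scin differed by 1.85 and Cyp1b1 by 1.24. Macrophage and dendritic markers were higher with TCDD in 8 of 15 genes in thymocytes (median 0.03), 10 of 15 in emigrants numbered 1 (0.44) and 15 of 15 in emigrants numbered 2 (1.83), beside medians of 0.01, -0.02 and -0.02 over all genes. Their summed level ranged from 9.55 to 13.49 over the dioxane arrays and from 10.59 to 13.83 over the TCDD arrays. Within this list the thymocyte pair ran from -0.46 (Lyz2, a lysozyme) to 3.64 (Lgals3). The pair numbered 1 ran from -1.14 (Mrc1, a mannose receptor) to 2.00 (Lyz2). In the pair numbered 2 the differences ran from 0.00 (Itgam, an integrin chain) to 2.90 (Lgals3), with Cd68, a lysosomal glycoprotein, at 2.28. Csf1r, the macrophage growth factor receptor, differed by 0.03, -0.20 and 1.83, and Cd14, an endotoxin coreceptor, by 0.07, 1.97 and 0.95. Neutrophil and mast cell markers were higher in 7 of 14, 13 of 14 and 8 of 14 genes in the same order of pairs (medians 0.02, 0.84 and 0.11). Their summed level ranged from 9.54 to 13.23 with dioxane and from 9.81 to 14.02 with TCDD. T-lineage genes were higher with TCDD in 2, 8 and 3 of 14 (medians -0.61, 0.12 and -1.10), NK and innate lymphoid genes in 7, 6 and 6 of 9 (1.56, 0.05 and 0.13), and fibroblast and endothelial genes in 4, 6 and 10 of 12 (-0.06, 0.15 and 1.41).

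Among megakaryocyte and platelet genes, Pf4, a platelet chemokine, was higher by 1.15, 1.48 and 4.83 in the pairs of thymocytes, emigrants numbered 1 and emigrants numbered 2, and Ppbp, another platelet chemokine, by 1.01, -0.00 and 4.72, where the dioxane values of thymocytes (4.23) and of emigrants numbered 2 (4.06) were under the highest bacterial control. Of the platelet receptor subunits, Gp9 differed by -0.03, -0.17 and -0.13, and Itga2b by 0.24, 0.41 and -0.08. Of the 7 measured genes of this list, 3, 4 and 2 were higher with TCDD, and the summed level ranged from 7.82 to 8.87 with dioxane and from 8.22 to 11.64 with TCDD. Actin probe sets at the 3' end exceeded those at the 5' end by more with TCDD in each pair, a gap that widens as RNA degrades or is amplified less completely, at 4.15 against 3.48, 3.77 against 3.06 and 3.36 against 3.01. The same gap for Gapdh did not run one way, at 5.86 against 6.10, 5.60 against 4.75 and 4.75 against 4.69. The part of these cell types and of RNA quality in the Cd9 difference was not tested.

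**Figure D2:**
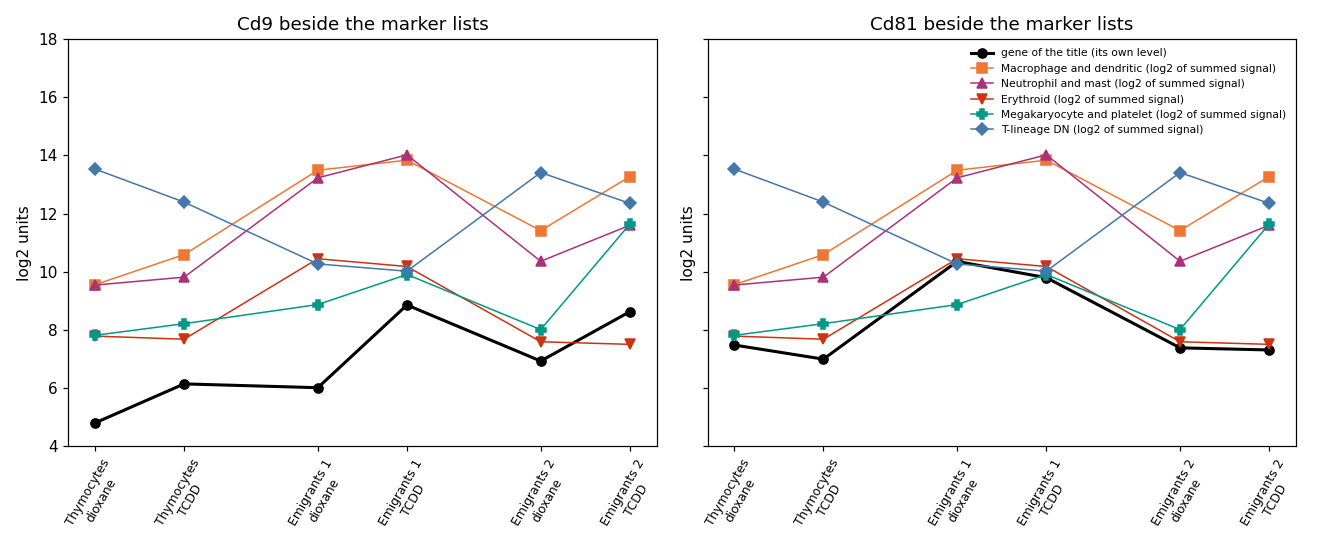
Level of Cd9 (left) and Cd81 (right) in black, beside the log2 of the summed signal of 5 marker lists in colour, on each of the 6 arrays (horizontal axis, log2 units on the vertical axis; lines only guide the eye). Cd81 is high on the arrays numbered 1, where the erythroid sum reads 10.45 and 10.18 against 7.51 to 7.79 on the other arrays, while Cd9 is high on the emigrant arrays with TCDD.

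Cd9 was also higher in emigrants than in thymocytes. With dioxane the emigrant arrays exceeded the thymocyte array by 1.21 (numbered 1) and 2.13 (numbered 2), and with TCDD by 2.71 and 2.48. The level in emigrants numbered 1 with dioxane (6.02) was below that in thymocytes with TCDD (6.15), so the sources overlapped when treatments were not matched. With treatment in the model the difference was 2.13 ± 0.35 (log2, SE, n = 4 emigrant and 2 thymocyte arrays). Cd9 alone of the 6 members lay above thymocytes in all 4 matched differences, as did 9.24% of all genes. It was also the only member in which these 4 differences and the 3 TCDD differences were all above 0, as in 2.82% of all genes. A span of at least 1 log2 unit over the 6 arrays was seen in 5 of the 6 members, all but Cd82, and in 33.1% of all genes. In this comparison limma called 0 members and 0 of 12393 genes (0%), with 880 at an unadjusted p under 0.05. In the same order of the 4 matched differences, 15, 15, 13 and 14 of 15 macrophage and dendritic markers were higher in emigrants (medians 3.28, 1.10, 3.52 and 2.58). T-lineage genes were higher in 0, 7, 2 and 6 of 14. The part of cell composition in the Cd9 difference between sources was not tested. In order, Cd9 was lowest in thymocytes with dioxane, then near equal in emigrants numbered 1 with dioxane and thymocytes with TCDD, higher in emigrants numbered 2 with dioxane, and highest in emigrants with TCDD, whose arrays differed by 0.23. The dioxane emigrant arrays differed by 0.92, more than the gap between any neighbours in the middle of that order, so their order there is not resolved.

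**Figure D3:**
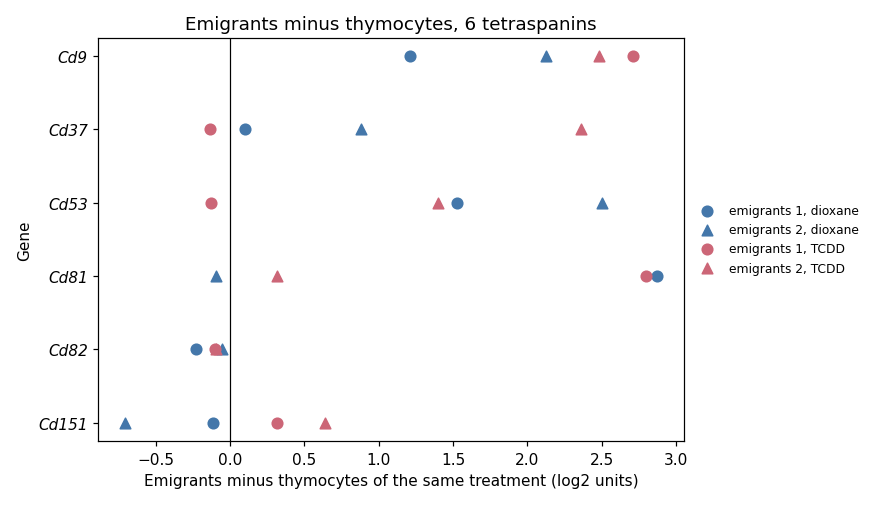
Emigrant minus thymocyte difference at the same treatment (log2 units, horizontal axis) for each member, with circles for emigrant arrays numbered 1, triangles for those numbered 2, blue for dioxane and red for TCDD. All 4 points of Cd9 lie above 0, and the points of Cd81 split by array number, near 2.87 and 2.80 for number 1 against -0.10 and 0.31 for number 2.

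Cd81, the close relative of Cd9, was higher on both emigrant arrays numbered 1 than on the other 4 arrays. It measured 7.48 with dioxane and 7.00 with TCDD in thymocytes, 10.35 and 9.80 in the emigrant pair numbered 1, and 7.39 and 7.31 in that numbered 2. Both arrays numbered 1 stood at least 2 log2 units above the other 4, as in 44 of 12393 genes (0.355%) and in no other member. TCDD was lower than dioxane in each pair, by -0.49, -0.56 and -0.07, a direction shared by 17.4% of all genes in all 3 pairs and by no other member. This direction rests on the matching by number, since the TCDD array numbered 1 lay above the dioxane array numbered 2. The fit over both sources gave -0.37 ± 0.96 (log2, SE), against -0.37 ± 0.15 with the array pairs as a block. The unblocked estimate turned positive where a pair was broken by leaving out the dioxane emigrant array numbered 1 (0.46) or the TCDD emigrant array numbered 2 (0.32), and was -1.10 and -1.24 without the other emigrant arrays. Against thymocytes, the emigrants differed by 1.47 ± 1.02 with all arrays, by 2.84 ± 0.22 without the arrays numbered 2 and by 0.11 ± 0.16 without those numbered 1. Without the arrays numbered 2 limma called 225 genes (1.82%), and without those numbered 1 it called 0 (0%).

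The arrays with high Cd81 were those with high transcripts of other blood cells. Erythroid markers summed to 10.45 and 10.18 on the arrays numbered 1 and to 7.51 to 7.79 on the other 4, with Ermap, a red cell membrane protein, at 8.71 and 9.03 against 4.12 to 4.58. Mpo, the myeloperoxidase of granulocyte precursors, read 9.83 and 10.06 there against 4.72 to 5.16. Vcam1, a ligand of the integrins that tetraspanins hold, read 11.40 and 10.46 there against 6.07 to 6.99. The part of these cells in the Cd81 level was not tested.

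Cd53, a pan-leukocyte tetraspanin, was higher in emigrants than in thymocytes apart from 1 array. It measured 8.92 with dioxane and 10.01 with TCDD in thymocytes, 10.45 and 9.88 in the emigrant pair numbered 1, and 11.42 and 11.41 in that numbered 2. The arrays numbered 2 were the highest and the dioxane thymocytes the lowest, with emigrants numbered 1 with TCDD slightly below thymocytes with TCDD. The matched differences were 1.53 and 2.50 with dioxane and -0.13 and 1.40 with TCDD, and the fit gave 1.33 ± 0.58 (log2, SE). TCDD minus dioxane was 1.09 for thymocytes and -0.57 and -0.01 for emigrants numbered 1 and 2, so no common direction was present. A rise of at least 1 log2 unit in the thymocyte pair, where each group is 1 array, was seen in Cd53 and Cd9 of the 6 members and in 2.83% of all genes. A difference of that size downwards was seen in 0 of the 6 and in 2.79% of all genes.

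Cd37, the other leukocyte-restricted member, was highest on the arrays numbered 2 by the probe set used, most of all with TCDD, but not by its second probe set. The first measured 5.93 with dioxane and 5.79 with TCDD in thymocytes, 6.03 and 5.66 in the emigrant pair numbered 1, and 6.81 and 8.15 in that numbered 2. The TCDD differences were -0.14, -0.37 and 1.34, and the fit over both sources gave 0.28 ± 0.67 (log2, SE). Without the TCDD emigrant array numbered 2 that estimate was -0.49, so the positive value rests on this array. The second probe set of Cd37 was dimmer, between 4.86 and 5.44, and highest on the arrays numbered 1 (5.44 and 5.40), with TCDD differences of 0.13, -0.04 and 0.35.

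For Cd82 the 2 probe sets of the gene did not give the same account. The brighter one, used by the rule, read 8.05 with dioxane and 8.01 with TCDD in thymocytes, 7.82 and 7.91 in the emigrant pair numbered 1, and 7.99 and 7.91 in that numbered 2. It spanned only 0.23 log2 units over the 6 arrays, less than the other members, and its TCDD differences were -0.04, 0.09 and -0.08. The dimmer one read 6.20 and 7.38, 6.63 and 6.08, and 6.59 and 7.62 in the same order. By that probe set Cd82 was higher with TCDD by 1.18 in thymocytes and 1.02 in emigrants numbered 2, and differed by -0.55 in emigrants numbered 1. Which of them follows the Cd82 transcript was not tested. All 4 emigrant arrays lay below both thymocyte arrays by the brighter probe set, as for 10.8% of all genes, with a fitted difference of -0.12 ± 0.15 (log2, SE).

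Cd151, the partner of laminin-binding integrins, was higher with TCDD on the emigrant arrays. Its used probe set read 6.60 with dioxane and 6.66 with TCDD in thymocytes, 6.48 and 6.98 in the emigrant pair numbered 1, and 5.90 and 7.30 in that numbered 2. The 3 TCDD arrays lay above the 3 dioxane arrays without overlap, as in 3.47% of all genes, although thymocytes differed by 0.06 only. The differences in emigrants were 0.49 and 1.40, and the fits gave 0.95 ± 0.31 in emigrants and 0.65 ± 0.28 over both sources (log2, SE). Together with Cd9 it was the member above dioxane in every pair, a property of 15.4% of all genes. Of its 6 probe sets, the third brightest moved alike (0.14, 0.48 and 1.83), but the second brightest gave -0.20, 0.12 and -0.23. Of the next brightest, both were higher with TCDD in emigrants numbered 2 (0.80 and 0.91) and mixed elsewhere, and the dimmest lay under the highest bacterial control on every array. The Cd151 difference therefore depends on the probe set read.

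**Figure D4:**
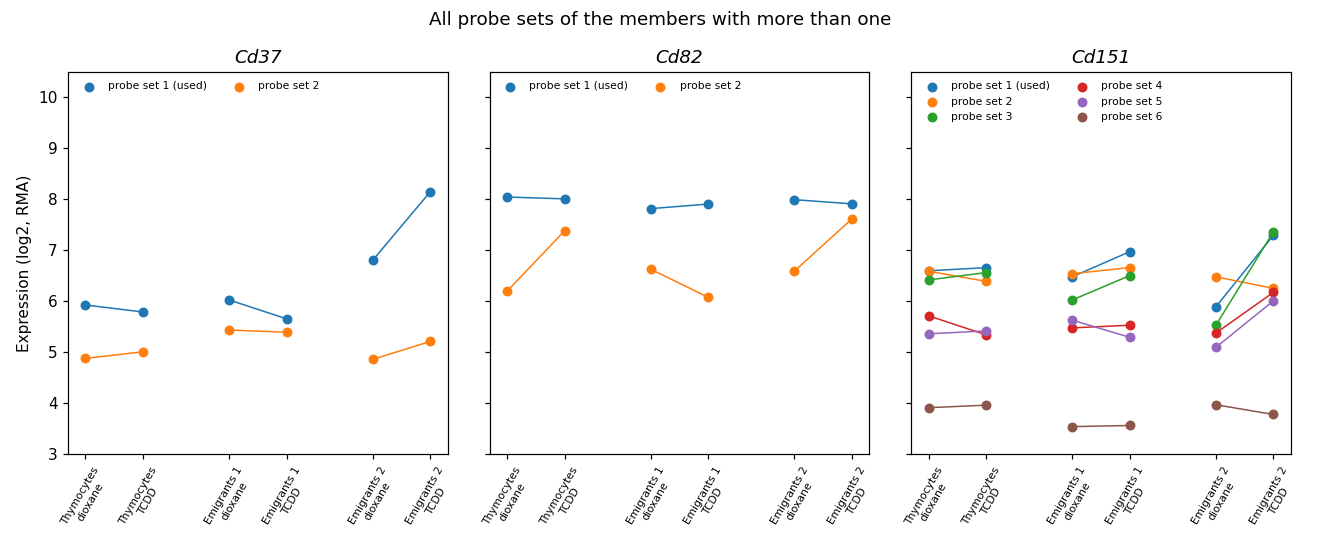
Expression (log2 units) of every single-gene probe set of Cd37, Cd82 and Cd151 on the 6 arrays, numbered from the brightest mean down, with lines joining the arrays of a pair. In Cd82 the used probe set is flat, while the other differs by 1.18, -0.55 and 1.02 between TCDD and dioxane.

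The members did not vary together. Over the 6 arrays, which share processing and overlap in treatment and source, Pearson's r between members ranged from -0.81 (Cd81 and Cd82) to 0.76 (Cd37 and Cd53), and Cd9 correlated with Cd81 at 0.18. Among 2675 genes that reached 6 log2 units on at least 3 arrays and spanned at least 1 log2 unit, those most like Cd9 were Taldo1, transaldolase of the pentose phosphate pathway (r = 0.99), Ctsa, a lysosomal carboxypeptidase (0.98), and Necap2, an endocytic adaptor (0.98). Taldo1 read 6.22 and 7.01 in thymocytes, 7.16 and 8.55 in the emigrant pair numbered 1, and 7.51 and 8.23 in that numbered 2, so it was higher with TCDD in each pair as Cd9 was. Those most like Cd81 were Dnajc10, a chaperone of the endoplasmic reticulum, Vcam1 and Ctse, an aspartic protease (each r = 0.99). Cd53 ran most closely with Fbxo8, Top2b, a DNA topoisomerase, and Tmem71 (0.991, 0.985 and 0.983), and Cd37 with Tecpr1, Tab2, a kinase adaptor, and Coro1b, an actin regulator (0.98, 0.97 and 0.97). Cd151 ran with Snx6, a sorting nexin (0.997), Reep5 (0.92) and Pdcd6ip, an exosome sorting protein (0.91). For Cd82 the nearest were Srp68, a signal recognition particle subunit, Spred2 and Dynlt1f (each r = 0.99), but with a span of 0.23 log2 units its order over arrays carries little. With 6 arrays, 38 genes exceeded r = 0.90 with Cd9 and 63 with Cd81.

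The rest of the family was compared from a list of 25 other tetraspanin genes, of which 20 had a single-gene probe set (Cd63, Tspan7, Tspan11, Tspan18 and Upk1b are not analysed here). TCDD was higher in 12 of 20 in thymocytes (median 0.04), 9 of 20 in emigrants numbered 1 (-0.03) and 9 of 20 in emigrants numbered 2 (-0.07), beside all-gene medians of 0.01, -0.02 and -0.02. None of the 20 passed at an adjusted p under 0.05 by limma in any of the 4 comparisons, where 0% of all genes did. By the probe sets used, Tspan3, Tspan17, Tspan31 and Tspan33 were higher in every pair, and Tspan2, Tspan5, Tspan13 and Upk1a lower in every pair. Some differed by little (Tspan3 by 0.00 in thymocytes), and none of the 20 reached 1 log2 unit in all 3. Dimmer probe sets of Tspan5, Tspan13, Tspan17, Tspan31 and Tspan33 gave the opposite sign in some or all pairs.

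Tspan13 ran most clearly against Cd9 in emigrants. It read 8.27 with dioxane and 8.16 with TCDD in thymocytes, 9.72 and 8.40 in the emigrant pair numbered 1, and 9.45 and 7.73 in that numbered 2. The fitted difference in emigrants was -1.52 ± 0.32 (log2, SE, n = 2 per treatment; unadjusted p = 0.00649 and adjusted p = 1.00 by limma over all genes). Its dimmer probe set was lower in both emigrant pairs (-0.19 and -1.21) and higher in thymocytes (0.78). Tspan6 differed by -1.17 in thymocytes, 0.34 in emigrants numbered 1 and -1.87 in those numbered 2, with the same signs by its other probe set, and Tspan2 differed by -0.07, -0.68 and -0.99. These values did not pass over all genes.

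**Figure D5:**
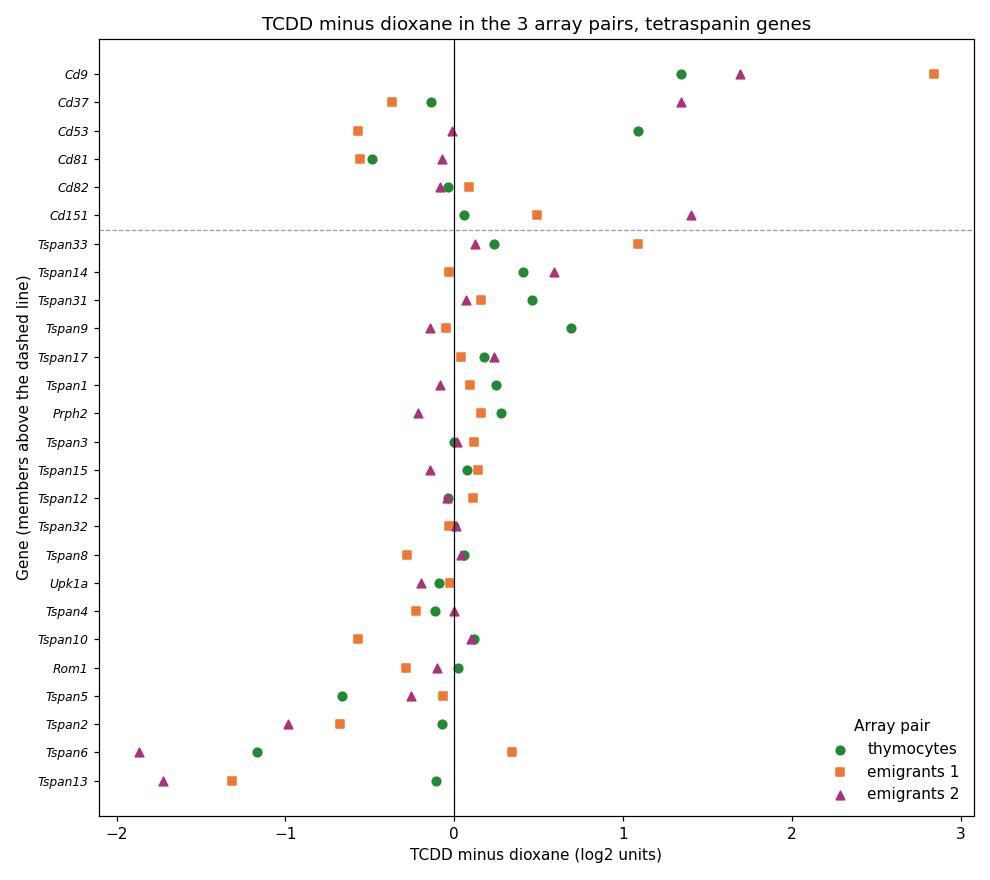
TCDD minus dioxane (log2 units, horizontal axis) in the thymocyte pair (green circles), emigrants numbered 1 (orange squares) and emigrants numbered 2 (purple triangles) for the 6 members, above the dashed line, and 20 other tetraspanins ordered by their mean. All 3 points of Cd9 lie at or above 1.34, while those of Tspan13 lie at -0.11, -1.32 and -1.73.

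Between the cell sources, Tspan9 differed by -1.27 ± 0.23 (log2, SE; unadjusted p = 0.00177 and adjusted p = 0.321 by limma), with 6.87 and 7.56 in thymocytes against 5.87 to 6.06 in emigrants. Tspan4, Tspan12, Tspan14 and Tspan32 were higher on all 4 emigrant arrays than on both thymocyte arrays, as were 5.46% of all genes and 0 of the 6 members, although Tspan12 lay under the highest bacterial control on every array and Tspan32 on 4 arrays. Tspan9 and Tspan10 were lower on all 4, as were 10.8%. Tspan33, one of the tetraspanins that escort the protease Adam10, shared with Cd81 the higher values on the arrays numbered 1, reading 5.03 and 6.12 against 4.09 to 4.42 on arrays where it was under the highest bacterial control. Of the others that escort Adam10, Tspan15 and Tspan17 were also highest on the arrays numbered 1, whereas Tspan5, Tspan10 and Tspan14 were not. That order, both arrays numbered 1 above the other 4, was met by 16.1% of all genes. The protease itself read 8.74 on both thymocyte arrays and 9.03 to 9.33 in emigrants.

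Proteins that tetraspanins bind were taken as a list of 36 genes, 35 of them measured. TCDD was higher in 18, 19 and 16 of 35 in the same order of pairs, with medians of 0.01, 0.03 and -0.02, near those of all genes, and 0 of 35 were called in any comparison. Of the integrin chains, Itgb1 differed by -0.12, -0.42 and 0.08, Itga6 by -0.50, -0.40 and 0.10, Itga3 by 0.22, -0.60 and -0.12, and Itga4, the chain that binds Vcam1, by -0.61, -0.48 and -1.17. Igsf8, an immunoglobulin-type partner of Cd9 and Cd81, differed by 0.16, 0.01 and 0.38, and Ptgfrn, its relative, by -0.02, 0.08 and -0.02. Itgb2, the leukocyte integrin chain, differed by 0.81, 0.55 and 0.21. Pi4k2a, a lipid kinase found in complexes with several tetraspanins, was higher in each pair by 0.31, 0.57 and 0.72, and Prkca, a protein kinase C that tetraspanins link to integrins, differed by -1.07, -0.67 and -1.18. For Prkca the TCDD arrays of both emigrant pairs (3.65 and 4.29) and the dioxane array numbered 1 (4.32) were not above the highest bacterial control, so its -0.67 lies between values not above background and its -1.18 is a bound. Wider differences upwards were found in Cd44, an adhesion receptor (2.17, -0.12 and 2.53), and Kit, the stem cell factor receptor (2.05, 0.17 and 1.47). Unlike in Cd9, the pair numbered 1 stayed near 0 in both. In that pair Cd44 was already high with dioxane (10.59, and 10.47 with TCDD), above the TCDD arrays of the other pairs (9.49 and 9.80). Kit was not (7.07 and 7.25, against 8.62 and 8.56). Downward ones in thymocytes and emigrants numbered 2 included Cd2 (-0.87, 0.21 and -2.15) and Cd5 (-0.41, 0.11 and -1.31). Cd2 was above the highest bacterial control on 1 array only and Cd5 on 4.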

How the data were processed

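Expression was measured in 6 samples, 1 Affymetrix array each. Per the submitters' processing notes and the series design text, the deposited log2 values are RMA summaries (background-corrected, normalized across arrays) made with the Bioconductor affy package. Its version is not given here. Such values carry no detection call, and folds of dim genes come out too small.

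No further normalization was applied. Of 22690 probe sets, those left out were 64 controls, 691 that name several genes and 1555 that name none, and 20380 carried 1 gene symbol of the platform annotation. The brightest probe set per gene gave 12393 genes. Linear models were fitted with limma 3.58.1 (R 4.3.3; lmFit, eBayes, Benjamini-Hochberg over all genes, calls at an adjusted p under 0.05). The models were TCDD with cell source, TCDD in emigrants and its difference between sources from the 4 group means, and cell source with treatment. Groups of 1 array are assumed to vary like the others. The code was tested on simulated data. A check of whether the numbers (1 of them assigned here) pair the emigrant samples gave r = 0.56 for the deviations across genes, over 2 pairs only. Arrays of the same number thus deviated alike in part. No block entered the main models because the labels do not say what the number marks, and it was fitted as an alternative.

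The members and lists were chosen with earlier results of these data known. Named were all members, members of the lists, and the 3 genes most like each member by Pearson's r. Alternatives were other normalizations, a filter, a prior trend, all probe sets, other covariates, the block and the omission of arrays.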

Additional observations from a re-analysis of the deposited data

Results flagged for a closer look

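Cd53 ran upwards with TCDD in the thymocyte pair (1.09 log2 units) and downwards in both emigrant pairs (-0.57 and -0.01). The fitted difference between sources was -1.38 ± 1.10 (log2, SE). Cd151 was lower in emigrants than in thymocytes with dioxane (mean -0.41, from -0.12 and -0.71) and higher with TCDD (mean 0.48, from 0.31 and 0.64). The corresponding fitted difference was 0.89 ± 0.54. For the whole table this fit called 0 genes by limma, with 97 at an unadjusted p under 0.05. Both were noted because every array of one group moved opposite to every array of the other.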

How the results depend on the processing

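Called genes stayed at 0 in all 4 comparisons under quantile, cyclic loess and median normalization, a median-level filter, an intensity trend and every probe set on its own. The exceptions were in emigrants against thymocytes, with 225 calls when the emigrant arrays numbered 2 were left out and a range of 0 to 7 when single arrays were left out (7 without the dioxane emigrant array numbered 2); the cause was not tested. With the replicate block (array number or array pair, the unnumbered dioxane array taken as 1) 0 genes were called over both sources and 0 in emigrants. The block was not fitted in the other comparisons. The mean TCDD difference of Cd9 lay between 1.52 and 2.27 with single arrays left out. Each member had 48 alternative fits over the 4 comparisons. These were 13 for TCDD over both sources, 12 for TCDD in emigrants, 14 for emigrants against thymocytes and 9 for the difference between sources. No sign changed for Cd9. Signs changed in 4 of 48 fits for Cd151, all 4 in emigrants against thymocytes, 5 for Cd37, 5 for Cd53, 6 for Cd81 and 7 for Cd82. Among the 13 fits of TCDD over both sources they changed in 0 for Cd151, 2 for Cd37, 3 for Cd53, 2 for Cd81 and 3 for Cd82. The number of members below dioxane in every pair, 1 with all pairs, was 2 when any 1 pair was left out, a criterion that fewer pairs can only ease. The share of all genes was then 32% without the emigrant pair numbered 1, 26% without that numbered 2 and 29.8% without the thymocyte pair, against 17.4% with all pairs. These omissions were chosen after seeing the data. Values near the bacterial controls, such as Cd9 in dioxane thymocytes, are limited by background.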
